A study of Mus musculus with 12 samples.

Results

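The 10 genes described here encode the main proteins of basement membranes and helpers of their assembly: Col4a1 and Col4a2, the chains of the most widespread collagen IV trimer; Lama1, Lamb1 and Lamc1, the chains of laminin-111; Nid1 and Nid2, the nidogens; Hspg2, perlecan; Sparc, a secreted collagen-binding glycoprotein; and Serpinh1, the collagen chaperone Hsp47 of the endoplasmic reticulum. They were chosen by symbol, with earlier results of these data known, as were the gene lists used below. Each symbol was matched through the authors' deposited comparison table to 1 of the 52661 Ensembl gene IDs with counts, and all 10 were found and passed the filter on low counts, with at least 679 counts in every library.

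Basement membranes are thin sheets of extracellular matrix built on 2 networks, one of laminin trimers and one of collagen IV, that are bridged by nidogens and by the heparan sulfate proteoglycan perlecan. Before implantation the first basement membrane of the mouse embryo forms between the epiblast and the primitive endoderm, and its derivative, the parietal endoderm, goes on to secrete the thick Reichert's membrane.

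The cells were CGR8, a mouse embryonic stem cell line kept pluripotent in medium with serum and the cytokine LIF. Cells of every group carried a stably transfected ppy-cagg-ires-puro vector, in which a ubiquitous promoter drives the insert. The vector encoded wild-type netrin-1 (netrin-1 WT), a point mutant of netrin-1 named for the receptor Unc5b (unc5B MUT), a point mutant named for the receptor neogenin (neo1 MUT), or was empty (control), with 3 RNA-seq libraries in each of these 4 groups. Netrin-1 is a secreted protein whose N-terminal domains resemble those of laminin chains. The comparisons ask how transcript levels differed with netrin-1 of either form and between its forms.

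Summed estimated counts were 22256195 to 59735737 per library. Ntn1 itself stood at 76.9 to 288 CPM (counts-per-million) in the netrin-1 WT libraries, 34.9 to 322 with unc5B MUT, 56.4 to 219 with neo1 MUT and 0.782 to 15.4 with the empty vector, lowest in library 3 of each group. Transcripts of the gene and of the vector are not separated in these values. All 9 embryonic stem cell markers examined were detected, and their summed level was 4172 to 4509 CPM with netrin-1 WT, 3963 to 4539 with unc5B MUT, 3420 to 4413 with neo1 MUT and 4006 to 4587 in control. The libraries carry replicate numbers 1, 2 and 3 in each group, and values per library are given in that order. The 4 libraries numbered 3 stood apart: 62.8% of 21053 tested genes differed between them and the others with the group held in the model. Between numbers 2 and 1, 0 of 21053 differed, so that test gives no evidence of matching within numbers 1 and 2. Separate cultures are not stated for the replicates, so a p-value reflects library-to-library spread that could be technical only. Same-numbered libraries deviated together from their group means, and tests are therefore given both from a model of the group alone (unpaired fit) and from a model with the replicate number as a block (paired fit), each fitted to all 12 libraries with the edgeR quasi-likelihood test. Differences are log2 fold changes ± SE from the paired fit, with Benjamini-Hochberg adjusted p over all tested genes, and "fell" and "rose" are used of genes with an adjusted p under 0.05 in that fit.

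In netrin-1 WT cells Col4a1, Col4a2, Lama1, Lamb1, Sparc and Serpinh1 fell 2.67-fold to 5.09-fold relative to control. In neo1 MUT cells the 6 fell as well, 2.75-fold to 5.09-fold. In unc5B MUT cells none of the 10 genes passed the test. The share of all tested genes that passed was 3.5% in netrin-1 WT, 5.26% in neo1 MUT and 0.0285% in unc5B MUT. With so few calls in unc5B MUT, their absence there cannot set the 10 genes apart. The remaining 4 genes, Lamc1, Nid1, Nid2 and Hspg2, did not pass the test against control in any group. These counts come from the paired fit; the unpaired fit called Serpinh1 in neo1 MUT alone. Markers of primitive endoderm moved with the 6 genes, as described after them, and in RNA from whole cultures fewer cells of a type and less RNA per cell cannot be told apart.

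**Figure D1:**
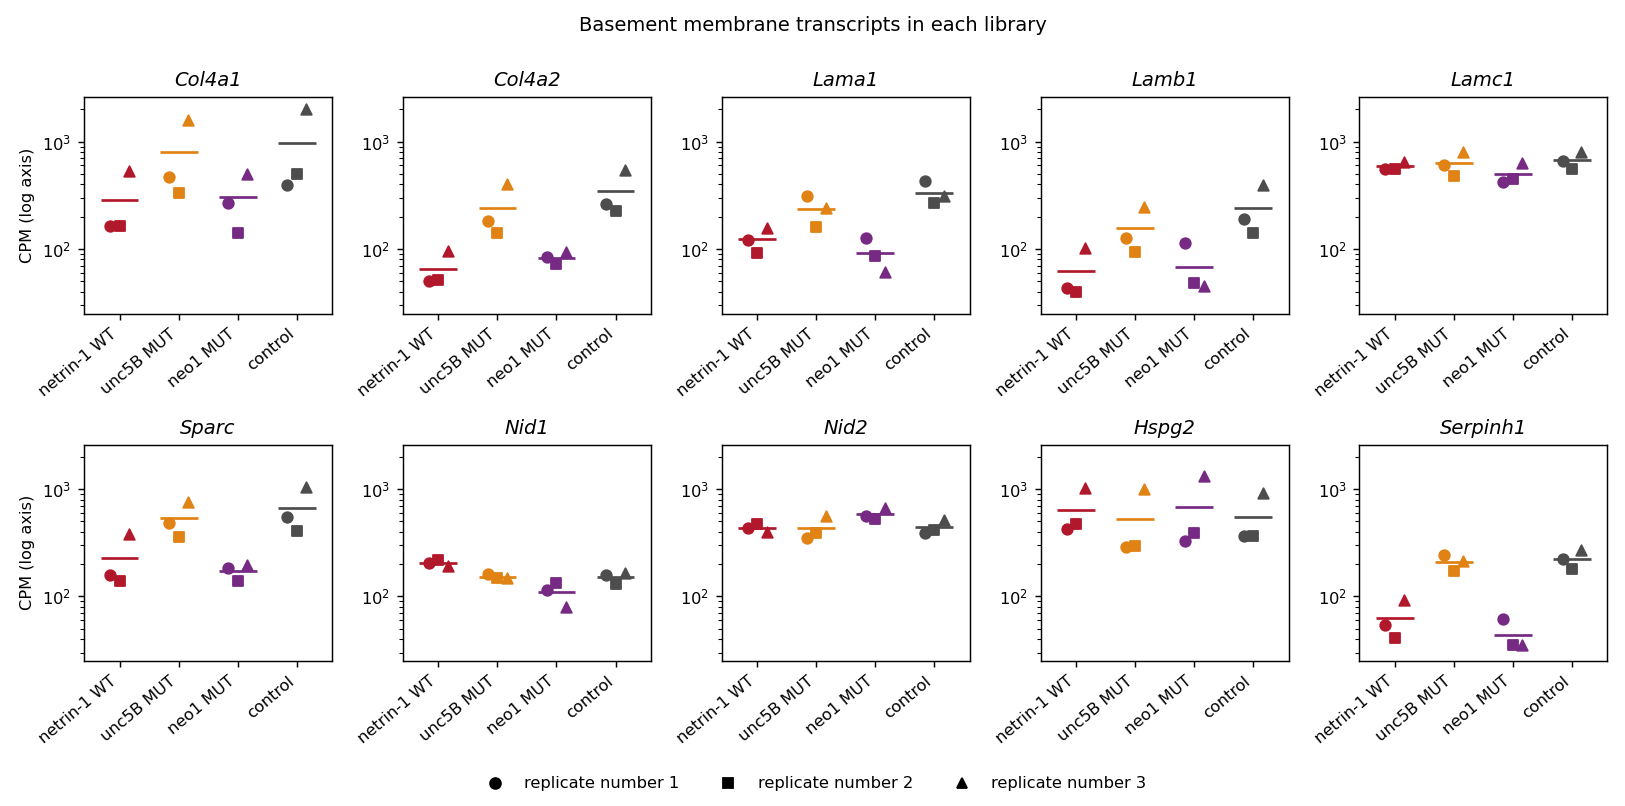
CPM of each of the 10 genes (log axis) in every library, by group; marker shape gives the replicate number and the bar is the mean of 3 libraries. Serpinh1 lay at 41.2 to 93.5 CPM in netrin-1 WT and 35.1 to 61.7 CPM in neo1 MUT, against 173 to 244 CPM with unc5B MUT and 181 to 270.5 CPM in control, while the 4 groups overlapped for Lamc1 and Hspg2.

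Collagen IV is a trimer that, in its commonest form, holds more than 1 α1 chain for each α2 chain. Col4a1 (ENSMUSG00000031502, chromosome 8, 11198423 to 11312826, minus strand, GRCm38) and Col4a2 (ENSMUSG00000031503, chromosome 8, 11312805 to 11449287, plus strand) are transcribed away from each other from a shared promoter, and their annotated gene bodies overlap at the 5′ ends by 22 bases. Since it is not given whether strand was used in counting, reads within that overlap cannot be assigned to 1 of them. Their promoter windows, from 250 bases before to 50 bases after the annotated start, are shown 5′ to 3′ on each gene's own strand because the genes moved together; capitals mark the 78 bases (chr8:11312777-11312854) that the 2 windows share as complements. The Col4a1 window is chr8:11312777-11313076 on the minus strand and the Col4a2 window is chr8:11312555-11312854 on the plus strand (RefSeq, GRCm38.p6).
Col4a1 promoter: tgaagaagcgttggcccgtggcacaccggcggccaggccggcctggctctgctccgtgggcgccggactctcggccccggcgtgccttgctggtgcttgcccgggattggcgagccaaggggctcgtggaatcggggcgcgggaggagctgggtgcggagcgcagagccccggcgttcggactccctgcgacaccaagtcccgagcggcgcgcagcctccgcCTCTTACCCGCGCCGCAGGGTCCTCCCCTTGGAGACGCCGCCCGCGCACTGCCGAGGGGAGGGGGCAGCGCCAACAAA
Col4a2 promoter: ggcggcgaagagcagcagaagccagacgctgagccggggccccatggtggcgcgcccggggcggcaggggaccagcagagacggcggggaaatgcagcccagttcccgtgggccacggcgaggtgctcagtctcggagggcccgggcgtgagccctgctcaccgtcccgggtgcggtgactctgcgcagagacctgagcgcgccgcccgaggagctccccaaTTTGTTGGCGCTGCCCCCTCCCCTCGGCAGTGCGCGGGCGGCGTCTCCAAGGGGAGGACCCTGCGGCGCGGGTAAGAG
The windows were 74.0% and 73.7% G and C, against a median of 52.7% over all 32851 RefSeq promoter windows. Each held 1 CCAAT, found in 37.4% of all windows, and Col4a1 held 1 and Col4a2 3 GGGCGG, found in 35.7% (both strands searched, and the shared bases counted for each gene).

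Col4a1 stood at 163, 162 and 533 CPM in netrin-1 WT libraries 1, 2 and 3, against 396, 495 and 2013 CPM in control libraries 1, 2 and 3. It stood at 472, 333 and 1602 CPM in unc5B MUT libraries and at 267, 141 and 499 CPM in neo1 MUT libraries. In every group library 3 was the highest, and netrin-1 WT and control overlapped because netrin-1 WT library 3 exceeded control libraries 1 and 2. Within each number, netrin-1 WT was below control, by 1.28, 1.61 and 1.92 on the log2 scale for numbers 1, 2 and 3. Col4a1 fell in netrin-1 WT (log2 fold change -1.63 ± 0.23, adjusted p = 0.00409) and in neo1 MUT (-1.46 ± 0.23, adjusted p = 0.00728) relative to control. In the unpaired fit the adjusted p was 0.916 for netrin-1 WT and 0.808 for neo1 MUT.

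Col4a2 stood at 49.8, 51.3 and 95.4 CPM in the netrin-1 WT libraries, 183, 139.8 and 400.5 CPM in those of unc5B MUT, 83.9, 71.8 and 94.0 CPM in neo1 MUT, and 262, 224 and 548 CPM in control. All netrin-1 WT and all neo1 MUT libraries were below all control libraries, and the unc5B MUT and control libraries overlapped. The α2 chain gene fell in netrin-1 WT (log2 fold change -2.35 ± 0.20, adjusted p = 0.000396; unpaired adjusted p = 0.141) and in neo1 MUT (-1.91 ± 0.20, adjusted p = 0.000706; unpaired adjusted p = 0.179). Col4a1 and Col4a2 both kept these calls when any 1 library of the groups compared was left out.

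Laminin-111 is assembled from 1 chain each of α1, β1 and γ1. Lama1 (ENSMUSG00000032796, chromosome 17, 67697259 to 67822647), which encodes α1, stood at 121, 91.8 and 156 CPM in the netrin-1 WT libraries, 309.5, 160.4 and 241 CPM in those of unc5B MUT, 125, 86.3 and 61.3 CPM in neo1 MUT, and 426, 266 and 309 CPM in control. The netrin-1 WT and neo1 MUT libraries were all below the control libraries. Lama1 fell in netrin-1 WT (log2 fold change -1.42 ± 0.23, adjusted p = 0.00752; unpaired adjusted p = 0.238), a call lost without netrin-1 WT library 2 (adjusted p = 0.0571). It fell in neo1 MUT (-1.87 ± 0.23, adjusted p = 0.00184; unpaired adjusted p = 0.0837), where the call held with each library left out in turn.

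Lamb1 (ENSMUSG00000002900, chromosome 12, 31265234 to 31329644), which encodes β1, stood at 43.4, 39.4 and 103 CPM in the netrin-1 WT libraries, 126, 93.5 and 248 CPM in those of unc5B MUT, 113, 48.0 and 45.1 CPM in neo1 MUT, and 190.1, 142 and 391 CPM in control. It had the widest error of the 6 genes. Lamb1 fell in netrin-1 WT (log2 fold change -1.95 ± 0.38, adjusted p = 0.0206; unpaired adjusted p = 0.419). That call was lost when library 1 or 2 of netrin-1 WT (adjusted p = 0.111 and 0.0954) was left out, or control library 1, 2 or 3 (adjusted p = 0.0535, 0.0739 and 0.0548). Lamb1 also fell in neo1 MUT (-1.63 ± 0.38, adjusted p = 0.0362; unpaired adjusted p = 0.399). The neo1 MUT difference was uneven, at -0.75, -1.56 and -3.12 on the log2 scale within numbers 1, 2 and 3. It was not called without neo1 MUT library 2 (adjusted p = 0.116) or control library 1, 2 or 3 (adjusted p = 0.0917, 0.107 and 0.0763).

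Lamc1 (ENSMUSG00000026478, chromosome 1, 153218922 to 153332786), which encodes γ1, the chain shared by most laminins, stood at 559, 559.6 and 646 CPM in the netrin-1 WT libraries, 611, 478 and 799.8 CPM in those of unc5B MUT, 417, 449 and 639 CPM in neo1 MUT, and 664, 561 and 806 CPM in control, and all 4 groups overlapped. The log2 fold change against control was -0.19 ± 0.12 in netrin-1 WT (95% interval -0.45 to 0.08, adjusted p = 0.449) and -0.44 ± 0.12 in neo1 MUT (-0.70 to -0.18, adjusted p = 0.0612). Neither passed the test. The neo1 MUT value did without the number 3 libraries (-0.50, paired adjusted p = 0.0442), and over all libraries in DESeq2 with the block (adjusted p = 0.016).

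The proportions of the chains were compared at the transcript level. Per kilobase of exon, the ratio of Lamc1 to Lama1 was 5.42, 7.13 and 4.85 in netrin-1 WT, 2.31, 3.49 and 3.88 with unc5B MUT, 3.89, 6.10 and 12.2 in neo1 MUT, and 1.83, 2.47 and 3.05 in control. The netrin-1 WT and neo1 MUT libraries were all above the control libraries. The ratio of Lamc1 to Lamb1 was 15.5, 17.0 and 7.51 in netrin-1 WT, 5.82, 6.13 and 3.86 with unc5B MUT, 4.43, 11.2 and 17.0 in neo1 MUT, and 4.19, 4.74 and 2.47 in control. Here netrin-1 WT was above control in every library, and neo1 MUT overlapped control. The ratio of Col4a1 to Col4a2 was 2.91, 2.80 and 4.95 in netrin-1 WT, 2.29, 2.11 and 3.55 with unc5B MUT, 2.82, 1.74 and 4.71 in neo1 MUT, and 1.34, 1.96 and 3.26 in control; library 3 had the highest ratio in each group and the groups overlapped. An exact permutation test of 3 libraries against 3 cannot go below p = 0.1, so the ratios are given without a test.

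**Figure D2:**
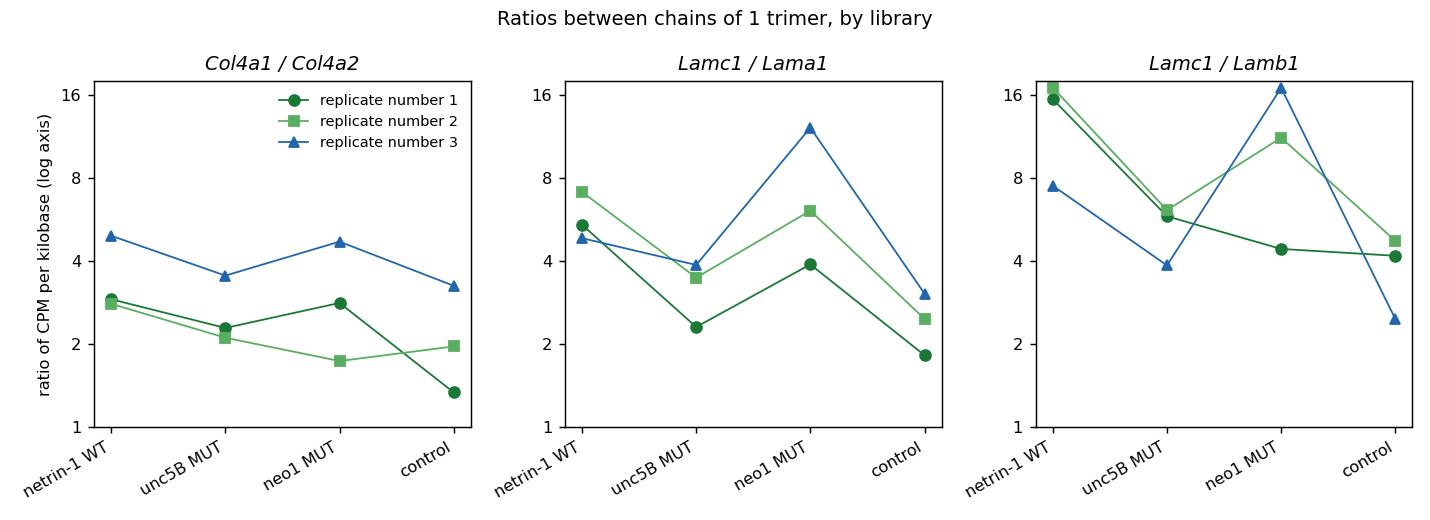
Ratios of CPM per kilobase of exon between chains of 1 trimer (log axis) in every library, with lines joining the libraries of 1 replicate number across the groups. The Lamc1 to Lama1 ratio was 4.85 to 7.13 in netrin-1 WT against 1.83 to 3.05 in control.

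Sparc and Serpinh1 act on collagen, outside the cell and inside it. Sparc (ENSMUSG00000018593, chromosome 11, 55394500 to 55423183) stood at 158, 140.2 and 381 CPM in the netrin-1 WT libraries, 480.3, 362 and 758 CPM in those of unc5B MUT, 183, 138 and 198 CPM in neo1 MUT, and 549.6, 408 and 1037 CPM in control. All netrin-1 WT and neo1 MUT libraries were below the lowest control library. Sparc fell in netrin-1 WT (log2 fold change -1.58 ± 0.18, adjusted p = 0.0013; unpaired adjusted p = 0.447) and in neo1 MUT (-1.82 ± 0.19, adjusted p = 0.000706; unpaired adjusted p = 0.214).

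Serpinh1 (ENSMUSG00000070436, chromosome 7, 99345376 to 99353239), whose product binds procollagen and is needed for collagen IV to fold and leave the cell, stood at 54.5, 41.2 and 93.5 CPM in the netrin-1 WT libraries, 244, 173 and 216 CPM in those of unc5B MUT, 61.7, 35.1 and 35.6 CPM in neo1 MUT, and 226, 181 and 270.5 CPM in control. The netrin-1 WT and neo1 MUT libraries were below every unc5B MUT and control library. Serpinh1 fell in netrin-1 WT (log2 fold change -1.87 ± 0.24, adjusted p = 0.00212; unpaired adjusted p = 0.107). In neo1 MUT it fell by 2.35 ± 0.24 on the log2 scale (adjusted p = 0.000706), and this was the only call among the 10 genes that the unpaired fit also made (adjusted p = 0.0436). The paired calls of Sparc and Serpinh1 against control held with each library left out in turn.

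Nidogens and perlecan link the laminin and collagen networks, and their genes did not pass the test against control. Nid1 (ENSMUSG00000005397, chromosome 13, 13437551 to 13512269) stood at 206, 219.8 and 192 CPM in the netrin-1 WT libraries, 161, 147 and 149 CPM in those of unc5B MUT, 115, 134 and 79.8 CPM in neo1 MUT, and 159.6, 129 and 166 CPM in control. Every netrin-1 WT library was above every library of the other groups. Against control the difference did not pass the test in netrin-1 WT (log2 fold change 0.43 ± 0.17, adjusted p = 0.192) or in neo1 MUT (-0.48 ± 0.17, adjusted p = 0.127). With the number 3 libraries left out, the netrin-1 WT value was 0.56 (paired adjusted p = 0.0278).

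Nid2 (ENSMUSG00000021806, chromosome 14, 19751265 to 19811787) stood at 431, 471 and 395 CPM in the netrin-1 WT libraries, 348, 392 and 564 CPM in those of unc5B MUT, 565, 527 and 661 CPM in neo1 MUT, and 389, 418 and 515 CPM in control. The neo1 MUT libraries were all above the control libraries, with a log2 fold change of 0.41 ± 0.15 that did not pass the test (adjusted p = 0.141) but did without the number 3 libraries (0.43, paired adjusted p = 0.0293). In netrin-1 WT the Nid2 value was -0.01 ± 0.15 (95% interval -0.33 to 0.32, adjusted p = 0.989). Per kilobase, the ratio of Nid2 to Nid1 was 2.81, 2.87 and 2.76 in netrin-1 WT, 2.90, 3.57 and 5.07 with unc5B MUT, 6.60, 5.27 and 11.1 in neo1 MUT, and 3.27, 4.33 and 4.17 in control. The neo1 MUT libraries had the highest ratios and the netrin-1 WT libraries the lowest, without overlap with control in either case.

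Hspg2 (ENSMUSG00000028763, chromosome 4, 137468769 to 137570630) stood at 424, 473 and 1023 CPM in the netrin-1 WT libraries, 289, 297 and 1008 CPM in those of unc5B MUT, 326, 389 and 1333 CPM in neo1 MUT, and 366, 366 and 915 CPM in control. Library 3 was the highest in each group by a wide margin, and all groups overlapped. The log2 fold change against control was 0.25 ± 0.15 in netrin-1 WT (adjusted p = 0.411) and 0.16 ± 0.15 in neo1 MUT (adjusted p = 0.603).

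The promoter windows of Serpinh1, which fell in netrin-1 WT and neo1 MUT, and of Hspg2, which did not, are shown for contrast, with CCAAT and GGGCGG on either strand in capitals. They are chr7:99353190-99353489 on the minus strand and chr4:137468553-137468852 on the plus strand (RefSeq, GRCm38.p6), each 5′ to 3′ on the gene's own strand.
Serpinh1 promoter: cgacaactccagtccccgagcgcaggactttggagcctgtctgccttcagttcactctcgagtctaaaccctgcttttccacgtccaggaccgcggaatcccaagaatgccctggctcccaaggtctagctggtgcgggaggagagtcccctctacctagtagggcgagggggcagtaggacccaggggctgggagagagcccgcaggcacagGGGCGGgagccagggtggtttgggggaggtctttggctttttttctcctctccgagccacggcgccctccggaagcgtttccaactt
Hspg2 promoter: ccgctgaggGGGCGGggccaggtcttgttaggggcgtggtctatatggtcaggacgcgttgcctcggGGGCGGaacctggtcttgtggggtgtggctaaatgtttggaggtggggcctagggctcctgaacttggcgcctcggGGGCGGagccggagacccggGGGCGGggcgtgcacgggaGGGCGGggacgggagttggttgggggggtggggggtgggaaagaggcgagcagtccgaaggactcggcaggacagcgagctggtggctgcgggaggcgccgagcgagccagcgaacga
Serpinh1 held 1 GGGCGG and Hspg2 5, and neither held CCAAT. Lamb1 and Sparc, which fell, held 2 and 0 GGGCGG, and Nid1, which was not called against control, held 1. Whether the GGGCGG count goes with a fall was not tested, and so few windows could not decide it. Of the 10 genes 7 had a window in the table used. TATAAA, present in 13.6% of all windows, the GATA letters (AGATAA and also AGATAG, and with T first TGATAA and also TGATAG), present in 29.8%, and the SOX letters (ACAATG and also ACAAAG), present in 28.6%, were found in none of the 7 on either strand.

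As a group, 6 of the 10 genes fell in netrin-1 WT relative to control in the paired fit, where 3.5% of all tested genes were called and 1.76% were called lower. The unpaired fit called 0 of the 10 and 0.0997% of all genes. At an unadjusted p under 0.05 it gave 5 of the 10 and 5.79% of all genes. DESeq2 with the group alone called 3 of the 10 and 1.52% of the genes to which it gave an adjusted p. Of the 10, 5 had all netrin-1 WT libraries below all control libraries, which held for 4.34% of tested genes, and Nid1 was higher without overlap, which held for 4.89%. Within all 3 numbers netrin-1 WT was below control for 7 of the 10 and for 16.3% of tested genes. The median log2 fold change of the 10 genes was -1.50, against 0.01 for all genes tested. The 10 genes were chosen with earlier results of these data known. Shares and medians of all genes beside theirs, here and below, are therefore a description only.

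In neo1 MUT relative to control, 6 of the 10 fell in the paired fit, where 5.26% of tested genes were called and 3.3% were called lower. The unpaired fit called 1 of the 10 and 0.128% of all genes; the call of Serpinh1 was lost when any 1 library of the 2 groups was left out (adjusted p = 0.0667 to 0.225). That fit gave 6 of the 10 and 7.26% of all genes at an unadjusted p under 0.05, and DESeq2 with the group alone called 4 and 1.94%. Non-overlapping lower values were seen for 5 of the 10 and for 5.96% of tested genes, and a non-overlapping higher value for Nid2 and for 5.4%. Within all 3 numbers neo1 MUT was below control for 7 of the 10 and for 18.8% of tested genes. The median of the 10 was -1.55, against 0.02 for all genes tested. The comparisons with control share the control libraries, so their values are not independent of each other.

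In unc5B MUT relative to control, 0 of the 10 genes were called in the paired fit, where 0.0285% of tested genes were. At an unadjusted p under 0.05 the paired fit gave 2 of the 10 and 4.7% of all genes, and the unpaired fit 0 of the 10 and 1.13%. DESeq2 called 0 of the 10 with the block, where it called 0.287% of the genes with an adjusted p, and 0 without it, where it called 0.0525%. The values of the 6 genes that fell in the other netrin-1 groups were -0.24 for Col4a1 (95% interval -0.74 to 0.25), -0.54 for Col4a2 (-0.96 to -0.13), -0.51 for Lama1 (-0.995 to -0.02), -0.62 for Lamb1 (-1.43 to 0.19), -0.28 for Sparc (-0.67 to 0.12) and -0.09 for Serpinh1 (-0.59 to 0.41). Of these, Col4a2 had the lowest adjusted p, at 0.929. The unpaired fit called 0 of the 10 and 0.0% of all genes. None of the 10 separated unc5B MUT from control without overlap, against 2.05% of tested genes lower and 2.33% higher. Within all 3 numbers unc5B MUT was below control for 5 of the 10 and for 14.6% of tested genes. The median was -0.20 against 0.02 for all genes tested.

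**Figure D3:**
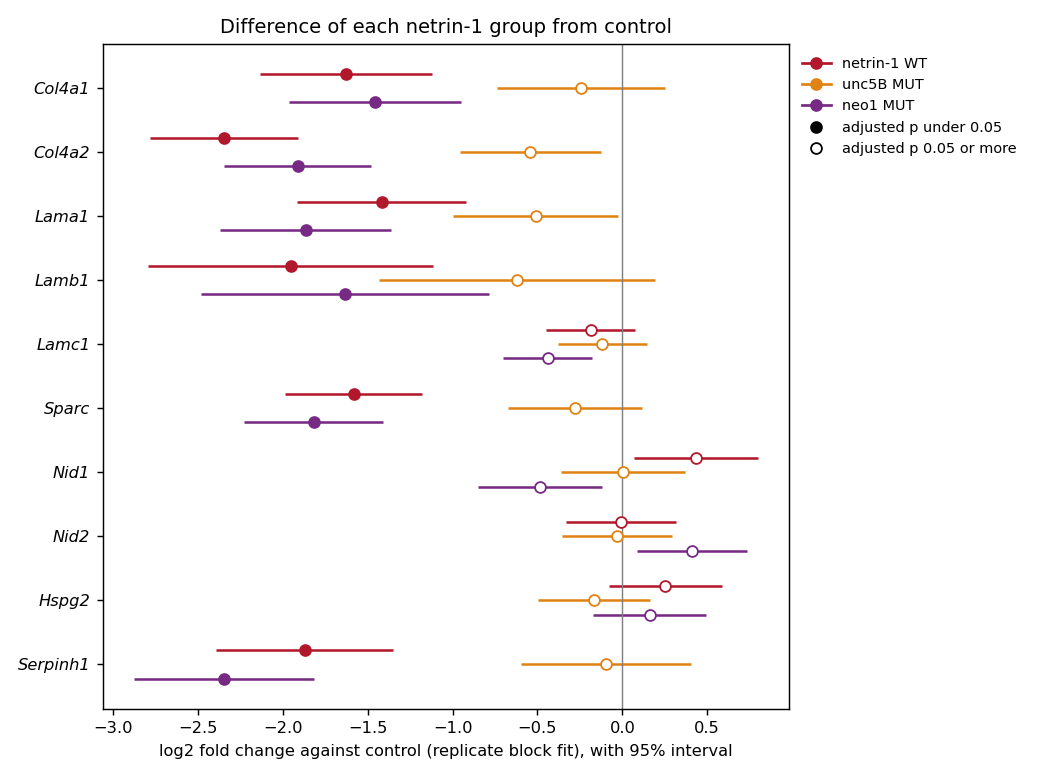
Log2 fold change of each gene against control in the paired fit for the 3 netrin-1 groups, with 95% intervals; filled points had an adjusted p under 0.05. The intervals of netrin-1 WT and neo1 MUT lie below 0 for Col4a1, Col4a2, Lama1, Lamb1, Sparc and Serpinh1. Of these genes, Col4a2 and Lama1 also have an unc5B MUT interval below 0, and no unc5B MUT point is filled.

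The forms of netrin-1 were also compared with each other. In unc5B MUT relative to netrin-1 WT, 4 of the 10 rose in the paired fit, where 1.97% of tested genes were called and 1.0% were called higher. Col4a2 was 1.81 ± 0.19 higher on the log2 scale (adjusted p = 0.00212), Serpinh1 1.78 ± 0.24 (adjusted p = 0.00682), Col4a1 1.39 ± 0.23 (adjusted p = 0.0164) and Sparc 1.31 ± 0.18 (adjusted p = 0.00835). Lama1 (adjusted p = 0.0674) and Lamb1 (adjusted p = 0.101) did not pass. The unpaired fit called 0 of the 10 and 0.0% of all genes, and gave 5 of the 10 and 5.03% of all genes at an unadjusted p under 0.05. Called by DESeq2 with the group alone were 2 of the 10 and 0.909%. Without overlap, 3 of the 10 and 5.0% of tested genes were higher and 1 of the 10, Nid1, and 4.43% lower. Col4a2 kept its call with each library left out. Serpinh1 lost it without netrin-1 WT library 2 or unc5B MUT library 2 (adjusted p = 0.0646 and 0.0577), Sparc without library 1 or 2 of netrin-1 WT (adjusted p = 0.0559 and 0.0693) or of unc5B MUT (0.0632 and 0.0718), and Col4a1 without any library but netrin-1 WT library 3 (adjusted p = 0.073 to 0.102). Lama1 gained one without netrin-1 WT library 3 (adjusted p = 0.0106), as did Hspg2, lower in unc5B MUT (adjusted p = 0.0388). Without the number 3 libraries the paired fit called Lama1 (log2 fold change 1.08, adjusted p = 0.0036), Lamb1 (1.37, adjusted p = 0.00778) and Hspg2 (-0.62, adjusted p = 0.00909) as well, and DESeq2 with the block called Lama1 and Lamb1 over all 12 libraries (adjusted p = 0.00551 and 0.00969).

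In neo1 MUT relative to netrin-1 WT the only one of the 10 genes called in the paired fit was Nid1, where 1.99% of tested genes were called and 1.6% were called lower. Nid1 fell to 115, 134 and 79.8 CPM in neo1 MUT, against 206, 219.8 and 192 CPM in netrin-1 WT, with no overlap and a log2 fold change of -0.92 ± 0.17 (adjusted p = 0.0199; unpaired adjusted p = 0.266). It was not called when library 1 or 2 of netrin-1 WT (adjusted p = 0.0578 and 0.0992) was left out, or neo1 MUT library 1 or 3 (adjusted p = 0.0953 and 0.0589). The unpaired fit called 0 of the 10 and 0.076% of all genes, and gave 1 of the 10 and 4.82% of all genes at an unadjusted p under 0.05. DESeq2 with the group alone called 1 of the 10 and 1.01%. Nid1 was the only one of the 10 lower without overlap, which held for 4.7% of tested genes, and Nid2 the only one higher without overlap (527 to 661 CPM in neo1 MUT against 395 to 471 CPM in netrin-1 WT), which held for 3.59%. Without the number 3 libraries the paired fit also called Col4a2 (log2 fold change 0.61, adjusted p = 0.0328).

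In neo1 MUT relative to unc5B MUT, 5 of the 10 fell in the paired fit, where 4.87% of tested genes were called and 3.28% were called lower. The log2 fold change was -2.25 ± 0.24 for Serpinh1 (adjusted p = 0.00102), -1.54 ± 0.18 for Sparc (adjusted p = 0.00192), -1.37 ± 0.19 for Col4a2 (adjusted p = 0.00464), -1.36 ± 0.23 for Lama1 (adjusted p = 0.0105) and -1.22 ± 0.23 for Col4a1 (adjusted p = 0.0165). Lamb1 did not pass (adjusted p = 0.157) but did without neo1 MUT library 1 (adjusted p = 0.0409). The unpaired fit called 0 of the 10 and 0.133% of all genes, with Serpinh1 nearest at an adjusted p of 0.0508. It gave 5 of the 10 and 6.85% of all genes at an unadjusted p under 0.05, and DESeq2 with the group alone called 2 of the 10 and 1.71%. Without the number 3 libraries the paired fit also called Nid2 (log2 fold change 0.56, adjusted p = 0.0119). Without overlap, 5 of the 10 (Col4a2, Lama1, Sparc, Serpinh1 and Nid1) and 6.65% of tested genes were lower. Serpinh1, Sparc and Col4a2 kept the call with each library left out. Lama1 lost it without unc5B MUT library 1 (adjusted p = 0.0829), and Col4a1 without any library of the 2 groups but neo1 MUT library 1 (adjusted p = 0.058 to 0.105).

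In the authors' deposited table of comparisons, at an adjusted p under 0.05, 6 of the 10 genes and 2.31% of all genes were lower in netrin-1 WT than in control, and 7 of the 10 and 3.6% of all were lower in neo1 MUT. In unc5B MUT the authors' deposited table had 0 of the 10 and 0.0491% of all genes differing from control in either direction. The seventh gene in neo1 MUT was Lamc1 (log2 fold change -0.44, adjusted p = 0.0405 in the authors' deposited table). Between netrin-1 forms, the authors' deposited table had 4 of the 10 and 1.63% of all genes higher in unc5B MUT than in netrin-1 WT, 1 and 1.7% lower in neo1 MUT than in netrin-1 WT, and 5 and 4.17% lower in neo1 MUT than in unc5B MUT.

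The order of transcript levels can be compared between genes per kilobase of exon. In netrin-1 WT the order was Nid2 (83.5 ± 7.30 CPM per kilobase, SD, n = 3), Lamc1 (71.1 ± 6.01), Sparc (59.7 ± 35.4), Hspg2 (44.7 ± 23.2), Col4a1 (38.3 ± 28.6), Nid1 (29.7 ± 2.01), Serpinh1 (25.8 ± 11.1), Lama1 (12.7 ± 3.31), Col4a2 (9.90 ± 3.92) and Lamb1 (6.24 ± 3.6). In control it was Sparc (176 ± 87.1 CPM per kilobase), Col4a1 (129.7 ± 121), Serpinh1 (92.4 ± 18.3), Nid2 (85.2 ± 12.8), Lamc1 (81.9 ± 14.9), Col4a2 (52.0 ± 26.7), Hspg2 (38.4 ± 22.2), Lama1 (34.4 ± 8.54), Lamb1 (24.3 ± 13.3) and Nid1 (21.8 ± 2.80). Neighbours in the control order overlapped in range throughout, as they did in netrin-1 WT except for Serpinh1 above Lama1. Nid2 and Lamc1 had the highest means in neo1 MUT too, at 113 ± 13.4 and 60.7 ± 14.5 CPM per kilobase. Nid2 overlapped no other gene there, while Lamc1 (50.4 to 77.3) overlapped Hspg2 (22.8 to 93.2), Sparc and Col4a1. The unc5B MUT order began with Sparc at 140.8 ± 53.7 and Col4a1 at 108 ± 93.3, as that of control did.

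The replicate number had its own pattern over the 10 genes. With the group in the model, the number 3 libraries differed from the mean of numbers 1 and 2 by 1.81 ± 0.16 on the log2 scale for Col4a1 and 1.56 ± 0.11 for Hspg2. They were also higher for Col4a2 (0.94 ± 0.14), Sparc (0.93 ± 0.13), Lamb1 (0.85 ± 0.28), Lamc1 (0.43 ± 0.09) and Nid2 (0.27 ± 0.11), all 7 at an edgeR adjusted p under 0.05. Lama1 (-0.03 ± 0.17), Serpinh1 (0.30 ± 0.17) and Nid1 (-0.15 ± 0.12) did not pass. For Col4a1 and Hspg2 this difference was as large as or larger than that between any 2 groups.

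With log2 CPM centred within each number, Col4a1, Col4a2, Lama1, Lamb1, Sparc and Serpinh1 varied together over the 12 libraries, with a Pearson r of 0.884 for Col4a1 and Lama1 at the low end and 0.991 for Sparc and Serpinh1 at the high end. Against the mean of the 10 genes, r was 0.683 for Lamc1, 0.203 for Nid1, -0.47 for Nid2 and -0.66 for Hspg2. Among 9511 other genes (the 10 left out) with a mean of at least 10 CPM, the 5 most like that mean were Gata4 (r = 0.991), Dazap2 (0.985), Amot (0.985), Crtap (0.983) and Lrpap1 (0.981). Gata4 stood at 4.73 ± 1.63 CPM in netrin-1 WT, 15.9 ± 8.37 in unc5B MUT, 3.54 ± 1.38 in neo1 MUT and 23.6 ± 10.6 in control (SD, n = 3 each). These points share libraries, depth and the group differences, and the values are a description of likeness.

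Other components of basement membranes were measured alongside: 32 genes, among them the remaining collagen IV and laminin chains, agrin and collagen XVIII, of which 22 were tested. Their median log2 fold change was 0.24 in netrin-1 WT and -0.04 in neo1 MUT relative to control. The paired fit called 1 lower in netrin-1 WT, and 2 higher and 1 lower in neo1 MUT. Of all tested genes it called 3.5% and 5.26%. In netrin-1 WT 1 of the 22 fell, Egflam, at 0.309 ± 0.0307 CPM in netrin-1 WT and 2.35 ± 0.334 CPM in control; it lies under the 5 CPM set for naming. In neo1 MUT Col18a1, which encodes a heparan sulfate-bearing collagen of basement membranes, rose to 399 ± 154 CPM, against a control mean of 233 ± 70.9 CPM, a log2 fold change of 0.75 ± 0.11 (adjusted p = 0.00393), and kept the call with each library left out. Agrn, which encodes agrin, rose to 317 to 617 CPM in neo1 MUT, against 258 to 363 CPM in control (0.51 ± 0.12, adjusted p = 0.0427), a call lost in each of the 6 fits without 1 library (highest adjusted p = 0.161). Egflam fell there too. In unc5B MUT relative to control none of the 22 passed the test in edgeR.

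Between the forms, Frem2, a Fraser-complex protein of basement membranes, fell in unc5B MUT relative to netrin-1 WT (log2 fold change -1.87 ± 0.35, adjusted p = 0.0283) and rose in neo1 MUT relative to unc5B MUT (1.53 ± 0.36, adjusted p = 0.037). Smoc1, which encodes a Sparc-related calcium-binding protein, fell in neo1 MUT relative to netrin-1 WT (-1.28 ± 0.27, adjusted p = 0.0411) and to unc5B MUT (-1.39 ± 0.27, adjusted p = 0.0198). Col18a1 rose in neo1 MUT relative to unc5B MUT (0.77 ± 0.11, adjusted p = 0.00407). The calls of Frem2 and Smoc1 held in 1 or 2 of the 6 fits without 1 library, and that of Col18a1 in all 6.

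Among 23 tested genes of collagen modification and export, 3 passed in netrin-1 WT relative to control. The share of all tested genes that passed was 3.5% in netrin-1 WT and 5.26% in neo1 MUT. Crtap, a subunit of the prolyl 3-hydroxylase complex, fell to 70.9 ± 5.43 CPM in netrin-1 WT, against a control mean of 113 ± 18.4 CPM, a log2 fold change of -0.66 ± 0.11 (adjusted p = 0.00868). The lysyl hydroxylase gene Plod3 fell by 0.51 ± 0.11 (adjusted p = 0.0317), and P3h3, of the prolyl 3-hydroxylase family, rose by 0.81 ± 0.19 (adjusted p = 0.0443). In neo1 MUT Crtap fell by 0.87 ± 0.11 (adjusted p = 0.00186), Plod3 by 0.48 ± 0.11 (adjusted p = 0.0323) and the prolyl 4-hydroxylase subunit P4ha2 by 1.57 ± 0.28 (adjusted p = 0.0127) on the log2 scale. Leaving out 1 library at a time, Crtap in neo1 MUT kept its call in 6 of 6 fits, P4ha2 in 5, Crtap in netrin-1 WT in 4, P3h3 and Plod3 in netrin-1 WT in 1 each, and Plod3 in neo1 MUT in 0 (highest adjusted p = 0.143). Relative to unc5B MUT, Crtap fell (-0.66 ± 0.11, adjusted p = 0.00996) and the collagen chaperone gene Fkbp10 rose (1.29 ± 0.22, adjusted p = 0.0117) in neo1 MUT.

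Of 13 tested receptor genes for basement membrane components, 1 rose and 1 fell in netrin-1 WT relative to control in the paired fit. In unc5B MUT 1 rose and 0 fell, and in neo1 MUT 2 rose and 2 fell. Of all tested genes, 3.5% were called in netrin-1 WT, 0.0285% in unc5B MUT and 5.26% in neo1 MUT. Dystroglycan, a laminin receptor encoded by Dag1, stood at 242 ± 35.3 CPM in netrin-1 WT libraries, 255 ± 22.6 CPM in unc5B MUT libraries, 237 ± 33.1 CPM in neo1 MUT and 121 ± 26.6 CPM in control. Dag1 rose in all 3 netrin-1 groups, with a log2 fold change of 1.02 ± 0.11 for netrin-1 WT (adjusted p = 0.00104), 1.10 ± 0.11 for unc5B MUT (adjusted p = 0.00547) and 0.99 ± 0.11 for neo1 MUT (adjusted p = 0.00107). Its unc5B MUT call held in 3 of 6 fits without 1 library (highest adjusted p = 0.0716), the other calls in all 6. The laminin-binding integrin subunits Itga3 and Itga6, with their partner Itgb1, the collagen receptor Ddr1, and the low-level Itga1 and Itga7 passed the test in no comparison with control. Itgb1 stood at 375 ± 18.1 CPM in netrin-1 WT and 349 ± 112 CPM in control. Itga5, of the fibronectin receptor, fell in netrin-1 WT (-0.69 ± 0.14, adjusted p = 0.0237) and in neo1 MUT (-0.66 ± 0.14, adjusted p = 0.0234); these calls held in 2 and 1 of 6 fits without 1 library. In neo1 MUT Itgav rose (0.63 ± 0.13, adjusted p = 0.0216) and the proteoglycan Sdc4 fell (-0.84 ± 0.19, adjusted p = 0.0322), with calls that held in 1 and 2 of 6 such fits. Relative to unc5B MUT the same 3 genes passed in neo1 MUT (Itga5 adjusted p = 0.0483, Itgav 0.0455 and Sdc4 0.0421), in none of the 6 fits without 1 library.

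Of 17 tested proteases and inhibitors, Ctsl, the lysosomal protease cathepsin L, fell to 198 ± 20.4 CPM in netrin-1 WT and 238 ± 48.4 CPM in neo1 MUT, against a control mean of 486 ± 254 CPM. The log2 fold change was -1.20 ± 0.17 in netrin-1 WT (adjusted p = 0.00466) and -0.95 ± 0.17 in neo1 MUT (adjusted p = 0.0127). In neo1 MUT Timp1 (-0.67 ± 0.16, adjusted p = 0.041), an inhibitor of metalloproteases, Adamts9 (-0.93 ± 0.20, adjusted p = 0.0229) and Mmp9, at 1.38 ± 0.339 CPM against 3.50 ± 1.09 CPM in control, fell as well. Ctsl kept its call in 6 of 6 fits without 1 library in netrin-1 WT and in 5 in neo1 MUT, Adamts9 in 1 and Timp1 and Mmp9 in 0. The paired fit over all 12 libraries called 3.5% of all tested genes in netrin-1 WT and 5.26% in neo1 MUT.

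Matrix genes typical of fibroblasts were also examined. Of 13 tested, 0 were called in netrin-1 WT or unc5B MUT relative to control (edgeR, paired fit). Of all tested genes 3.5% and 0.0285% were called there, so 0 of 13 cannot set the list apart. In neo1 MUT 1 rose and 2 fell, where 5.26% of all tested genes were called. The list median was 0.15 in netrin-1 WT, 0.10 in unc5B MUT and -0.53 in neo1 MUT on the log2 scale. In neo1 MUT relative to control Fn1, fibronectin, rose (0.65 ± 0.16, adjusted p = 0.0394), and Col5a1 (-0.95 ± 0.16, adjusted p = 0.0106) and Thy1 (-1.30 ± 0.28, adjusted p = 0.0253) fell; Col5a1 kept its call in 4 of 6 fits without 1 library, Fn1 and Thy1 in 0. Relative to netrin-1 WT, Col5a1 fell in neo1 MUT as well (-1.37 ± 0.16, adjusted p = 0.0024), in 6 of 6 such fits. Relative to unc5B MUT, Col5a1 (-1.10 ± 0.16, adjusted p = 0.00629) and Thy1 (-1.43 ± 0.28, adjusted p = 0.0196) fell in neo1 MUT, in 5 and 2 of 6 such fits. The summed level of 9 fibroblast markers was 5.62 to 13.6 CPM in netrin-1 WT, 9.36 to 9.83 in unc5B MUT, 4.86 to 7.61 in neo1 MUT and 7.83 to 18.1 in control.

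Markers of primitive endoderm, a tissue that makes basement membrane in the embryo, moved with the 6 genes. In the paired fit 13 of 13 fell in netrin-1 WT (median log2 fold change -3.04) and 13 of 13 in neo1 MUT (median -2.60) relative to control. In unc5B MUT 0 of 13 were called (median -0.59). Of all tested genes 1.76% fell in netrin-1 WT and 3.3% in neo1 MUT, and 0.0285% were called in unc5B MUT. With so few calls in unc5B MUT, 0 of 13 cannot set the markers apart there. In the unpaired fit, which called 0.0997% and 0.128% of all genes, 7 and 4 of the 13 fell in netrin-1 WT and neo1 MUT. Among those with the largest decreases in netrin-1 WT were Cubn, Dab2, Srgn, Sox17, Sox7, Amn and Pdgfra, between -3.90 for Cubn and -2.51 for Pdgfra. In neo1 MUT they included Dab2, Cubn, Sox17, Sox7, Srgn, Pdgfra and Gata4, between -3.18 for Dab2 and -2.58 for Gata4. Relative to netrin-1 WT, 12 of 13 rose in unc5B MUT, against 1.0% of all tested genes. Of the 13, Dab2, Sox17, Cubn, Srgn, Sox7, Pdgfra and Amn lay between 2.75 and 1.91. Amn also rose in neo1 MUT relative to netrin-1 WT (1.17 ± 0.18, adjusted p = 0.00977), in 5 of 6 fits without 1 library. Relative to unc5B MUT, 12 of 13 fell in neo1 MUT, against 3.28% of all tested genes. Of the 13, Sox17, Pdgfra, Dab2, Gata4, Cubn, Sox7 and Srgn lay between -2.35 and -1.73. These calls held in every fit without 1 library for 11 genes in netrin-1 WT and 10 in neo1 MUT relative to control, and for 3 genes in each comparison with unc5B MUT.

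The summed level of the 11 primitive endoderm markers, none at 0 in all libraries, was 109.7 to 179 CPM in netrin-1 WT, 274 to 424 CPM with unc5B MUT, 86.2 to 201 CPM in neo1 MUT and 439 to 641 CPM in control. The netrin-1 WT and neo1 MUT sums overlapped each other and lay below every unc5B MUT and control sum. The unc5B MUT sums in turn lay below every control sum. The part of these markers in the difference of the 6 matrix genes was not tested. Of 7 tested parietal endoderm genes 3 fell in netrin-1 WT and 4 in neo1 MUT relative to control, against 1.76% and 3.3% of all tested genes. Among the parietal genes that fell were Snai1 (-1.70 ± 0.34 and -1.61 ± 0.34) and the parathyroid hormone receptor Pth1r (-2.92 ± 0.42 and -2.82 ± 0.42). In neo1 MUT Vim fell too (-0.68 ± 0.15). Pth1r kept both calls in 6 of 6 fits without 1 library, Snai1 in 2 in netrin-1 WT and 3 in neo1 MUT, and Vim in 1. Relative to unc5B MUT, Pth1r (-2.36 ± 0.41, adjusted p = 0.013) and Vim (-0.98 ± 0.15, adjusted p = 0.00629) fell in neo1 MUT, in 4 and 6 of 6 such fits. Pth1r rose in unc5B MUT relative to netrin-1 WT (2.46 ± 0.41, adjusted p = 0.0178), in 1 of 6. The sum of 8 parietal markers was 166 to 275 CPM in netrin-1 WT, 237 to 337 in unc5B MUT, 104 to 181 in neo1 MUT and 239.8 to 261 in control. Of 7 tested visceral endoderm genes, 1 rose and 1 fell in netrin-1 WT and 1 rose and 2 fell in neo1 MUT relative to control. Calls in either direction made up 3.5% and 5.26% of all tested genes there. Trf, transferrin, rose in netrin-1 WT (1.37 ± 0.22, adjusted p = 0.00847) and in neo1 MUT (0.96 ± 0.22, adjusted p = 0.0353). Apoa4, an apolipoprotein gene under the 5 CPM set for naming, fell in netrin-1 WT (adjusted p = 0.0106) and in neo1 MUT (adjusted p = 0.013), at 0.0332 ± 0.0132 CPM in netrin-1 WT and 0.0388 ± 0.0341 CPM in neo1 MUT, against 0.447 ± 0.195 CPM in control. Hnf4a fell in neo1 MUT relative to control (-1.46 ± 0.28, adjusted p = 0.0163) and to unc5B MUT (-1.61 ± 0.28, adjusted p = 0.0133). Trf fell in unc5B MUT relative to netrin-1 WT (-1.13 ± 0.22, adjusted p = 0.0321). Trf kept its calls against control in 4 of 6 fits without 1 library in netrin-1 WT and in 2 in neo1 MUT, Apoa4 in 3 and 3, Hnf4a in 2 in each comparison, and Trf between the forms in 1. Of the 9 embryonic stem cell markers Sox2 rose in netrin-1 WT (0.75 ± 0.14, adjusted p = 0.0144), a call that held in 2 of 6 such fits. Of 5 trophectoderm markers 4 were tested. Tfap2c rose in netrin-1 WT relative to control (0.96 ± 0.22, adjusted p = 0.0384), at 24.8 ± 22.1 CPM in netrin-1 WT and 12.1 ± 9.66 CPM in control. Gata3 fell in neo1 MUT relative to netrin-1 WT (-1.63 ± 0.32, adjusted p = 0.0278), and each of these calls held in 1 of 6 such fits. The summed level of the 5 was 29.8 to 76.9 CPM in netrin-1 WT, 21.6 to 51.1 in unc5B MUT, 24.8 to 42.1 in neo1 MUT and 20.0 to 50.4 in control.

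**Figure D4:**
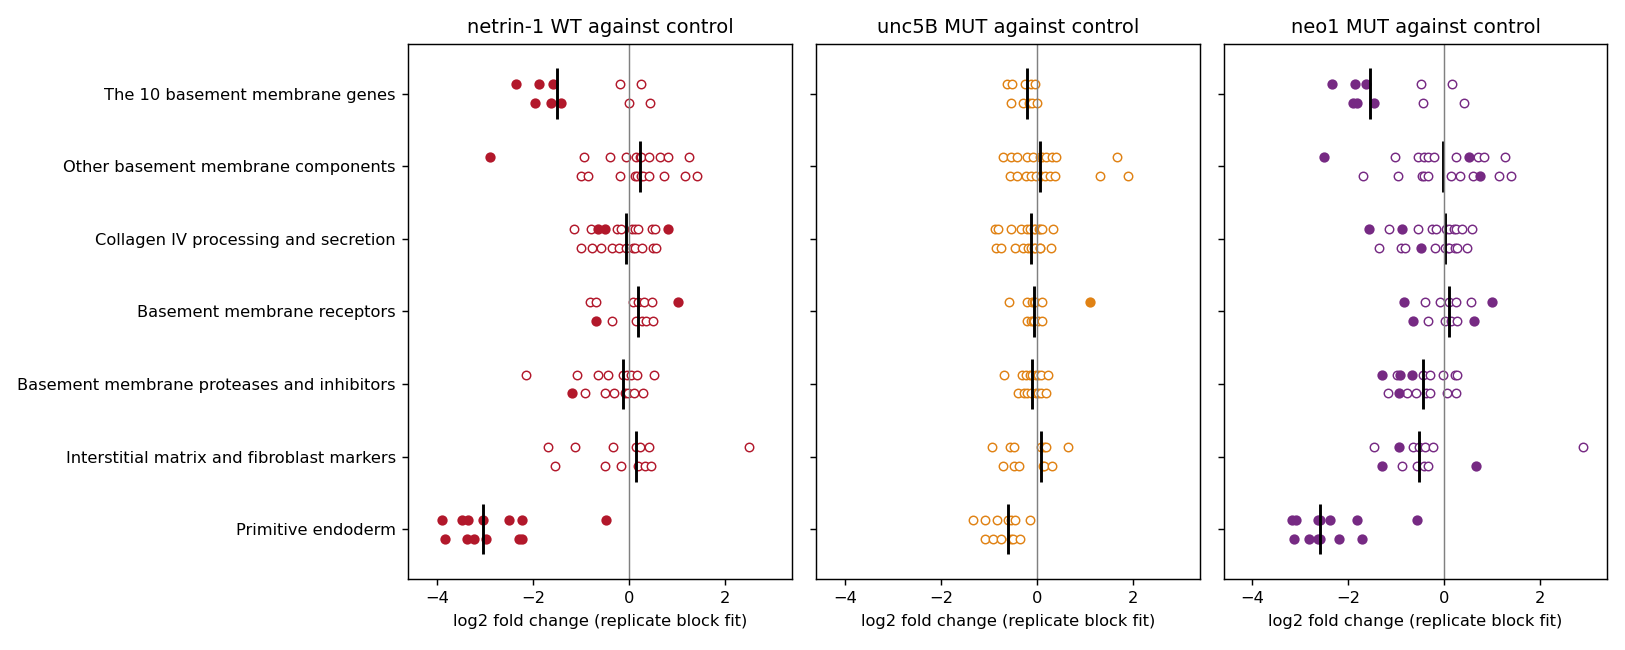
Log2 fold change against control in the paired fit for the 10 genes and 6 other gene groups, with a panel for each netrin-1 group; each point is 1 tested gene, filled at an adjusted p under 0.05, and the vertical bar is the median. The median of the 10 genes was -1.50 for netrin-1 WT, -0.20 for unc5B MUT and -1.55 for neo1 MUT, and that of the primitive endoderm genes -3.04, -0.59 and -2.60.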

How the data were processed

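Total RNA of 12 libraries was sequenced, 3 per group, and groups and replicate numbers come from the sample titles. The authors deposited estimated counts per Ensembl gene, which need not be whole and were rounded here, although the design had assumed whole counts. Their deposited comparison table gives a log2 fold change and p-values, per the file headers, and is quoted only where named. The submitters' processing notes name STAR 2.5.2b, FastQC 0.11.5, Bowtie2, Bowtie, DESeq2 and R 3.3.2, and as builds GRCm38.p5, mm10 and GRCh38, without their roles. The counting program and its strand setting are not given in the sources used here. Reads of overlapping or near-identical genes may thus have been divided.

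Counts were analysed with edgeR 4.0.16 in R 4.3.3 (data.table package, version 1.17.8, and limma 3.58.1): TMM, filterByExpr, a quasi-likelihood F-test over all 12 libraries, and adjustment over 21053 genes at 0.05. Scripts ran in Python 3.11.15 (pandas 2.3.3, numpy 2.4.6, scipy 1.17.1, matplotlib 3.10.9). GENCODE M21 (GRCm38) named 52566 IDs and gave coordinates and exon lengths. CPM use TMM library sizes; log2 CPM add a prior count of 2. The code was tested on simulated data. The group-only model was the planned one. Same-numbered libraries had deviations correlated at 0.58 to 0.88 over 18 pairs, above the minimum of 0.1 for pairing, so the block is printed beside it. Pairs of libraries 1 and 2 had 0.49 to 0.76, and pairs with 1 library of number 3 had -0.83 to -0.60. Replicates were no duplicates: chi-square per gene was at least 23.4. Fits left out each library in turn, the number 3 libraries, or the other groups, and used RLE factors, other filters and DESeq2 1.42.0.

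The 10 genes and all lists were chosen with earlier results of these data known. All 10 are described. From each list, genes of at least 5 CPM in a group that passed in the paired fit are named (the 8 with the largest change where there were more), with fixed receptors; Egflam, Mmp9 and Apoa4, under 5 CPM, were named after their values were seen. A listed gene that the rule names is not reported here.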

Additional observations from a re-analysis of the deposited data

Results flagged for a closer look

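Groups with different netrin-1 forms differed in 6 of the 10 genes, by the test of 1 form against another in the paired fit. This count is pooled over the comparisons of forms. The paired fit called 1.97% of all tested genes between unc5B MUT and netrin-1 WT. It called 1.99% between neo1 MUT and netrin-1 WT, and 4.87% between neo1 MUT and unc5B MUT. Values given for single genes are log2 differences. Separate cultures are not stated for the replicates, and whether the netrin-1 form caused the differences was not tested. Relative to netrin-1 WT, unc5B MUT was higher for Col4a1 (1.39), Col4a2 (1.81), Sparc (1.31) and Serpinh1 (1.78). Relative to unc5B MUT, neo1 MUT was lower for Col4a1 (-1.22), Col4a2 (-1.37), Lama1 (-1.36), Sparc (-1.54) and Serpinh1 (-2.25). Relative to netrin-1 WT, neo1 MUT was lower for Nid1 (-0.92), the linker between laminin and collagen IV. This difference was between 2 groups whose own differences from control did not pass. With 1 library left out at a time, both Col4a2 calls held in 6 of 6 fits, both Col4a1 calls in 1 and the Nid1 call in 2. None of these differences passed in the unpaired fit, and the sum of the primitive endoderm markers was 274 to 424 CPM in unc5B MUT, 86.2 to 201 CPM in neo1 MUT and 109.7 to 179 CPM in netrin-1 WT. Their part in the differences was not tested.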

How the results depend on the processing

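Counts of genes below an adjusted p of 0.05 are given in this order: netrin-1 WT against control, unc5B MUT against control, neo1 MUT against control, unc5B MUT against netrin-1 WT, neo1 MUT against netrin-1 WT and neo1 MUT against unc5B MUT. For the 10 genes the planned unpaired fit called 0, 0, 1, 0, 0 and 0, and the replicate block 6, 0, 6, 4, 1 and 5. The same 6 numbers were 6, 0, 6, 4, 1 and 5 for the block with RLE, 6, 0, 7, 6, 1 and 6 for the block with no filter beyond 1 count, 0, 0, 1, 0, 0 and 1 for at least 1 CPM in 3 libraries, 3, 0, 4, 2, 1 and 2 for DESeq2, and 6, 0, 7, 6, 1 and 5 for DESeq2 with the block. Without the number 3 libraries they were 6, 0, 4, 4, 0 and 4, with the block 7, 0, 8, 7, 2 and 6. With only the 2 groups compared they were 0 throughout, with the block 6, 0, 4, 6, 1 and 6. Leaving out 1 library gave 0 throughout without the block and, with it, 4 to 6, 0, 5 to 6, 1 to 6, 0 to 1 and 3 to 6.

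For all genes the unpaired fit called 21, 0, 27, 0, 16 and 28, and the block 737, 6, 1108, 414, 419 and 1026. The counts were 741, 6, 1112, 414, 411 and 1019 for the block with RLE, 13, 1, 19, 0, 11 and 13 with no filter beyond 1 count (942, 24, 1314, 669, 586 and 1349 with the block), 27, 0, 33, 1, 16 and 31 for at least 1 CPM, 331, 11, 406, 170, 219 and 346 for DESeq2, and 1732, 113, 2124, 1499, 1125 and 2204 for DESeq2 with the block. Without the number 3 libraries they were 895, 4, 586, 431, 193 and 493, with the block 3450, 16, 2233, 2845, 627 and 2132. With only the 2 groups compared they were 0, 0, 2, 0, 1 and 2, with the block 100, 1, 267, 177, 112 and 2062. Leaving out 1 library gave 1 to 6, 0, 4 to 17, 0, 8 to 9 and 6 to 20, and with the block 211 to 1861, 2 to 7, 278 to 1111, 36 to 1830, 147 to 379 and 133 to 497.

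For the fold changes of the 10 genes that the text gives over all 12 libraries, 21 of 864 recomputed values changed sign, none of them called; gene and comparison pairs whose fold change is not printed were not counted. Against control they were as follows, with the whole range over fits without 1 library, with and without the block. Nid2 in netrin-1 WT was 0.16 without number 3 and -0.13 to 0.18 without 1 library. Hspg2 in netrin-1 WT was -0.29 to 0.80 without 1 library. Hspg2 in neo1 MUT was -0.039 (block -0.045) without number 3 and -0.62 to 0.90 without 1 library. In unc5B MUT, without 1 library, Col4a1 was -1.26 to 0.85 and Sparc -0.66 to 0.16, and Serpinh1 was 0.025 (block 0.012) without number 3 and -0.23 to 0.052 without 1 library. The number 3 libraries are the shallowest, at 22256195 to 24736421 counts, which limits genes of low level more than the 10 genes. Why the counts change with the settings was not tested.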
